A study of Mus musculus with 2 samples.

Results

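Siglech, Ccr9, Klk1, Bst2, Pacsin1, Runx2, Tcf4, Ly6d and Atp1b1 are 9 genes used to mark plasmacytoid dendritic cells (pDC) in mouse bone marrow. They were followed here in sorted immature B cells by taking every non-control probe whose gene name, or its current synonym, was one of the 9. This gave 17 probes, lying on 26 spots of each array, of 41174 gene probes in all. All 9 genes had at least 1 probe bright enough to test, and 15 of the 17 probes were tested.

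The measurements come from 2 Agilent two-colour mouse arrays, each of which set labelled RNA of an autoreactive cell pool (Cy5 dye) directly against RNA of a non-autoreactive pool (Cy3 dye). The autoreactive cells came from BALB.B mice with the genotype 3-83Igi, Rag1-/-, H-2b, and the non-autoreactive cells from BALB/c mice with the genotype 3-83Igi, H-2d. All animals thus carried 3-83Igi, a knocked-in B cell receptor, and none was treated. From each bone marrow, erythrocytes were lysed and cells were sorted as B220-positive and negative for CD43, IgD and CD23. Strain, H-2 haplotype, the listed Rag1 disruption and dye followed the groups on both arrays, so none of them can be told apart from autoreactivity. H2-Ea, silent in H-2b mice, had log2 ratios of autoreactive over non-autoreactive signal of -5.22 and -5.26 (limma adjusted p = 0.000187), which places the H-2b sample in the Cy5 channel of both arrays. Rag1 itself had log2 ratios of 4.25 and 4.02 (adjusted p = 0.000460), far higher in the channel labelled Rag1-/-. Which part of Rag1 is disrupted, and whether the probe lies in it, is not given in the sources used here, so this label was not checked by the data. Replicate numbers are given for the autoreactive pools and not for the others, although the series design counts 2 biological replicates per group, and the animals behind a pool are not named. The p-values below therefore rest on the spread between these arrays, of the probe itself and, through limma's moderation, of all probes tested.

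Plasmacytoid dendritic cells are bone marrow-derived cells that sense viral nucleic acid through endosomal Toll-like receptors and release type I interferon. The E protein Tcf4 drives their development and holds their identity. In the mouse they carry B220 on their surface, as B cells do, and some of their marker genes are also transcribed in the B lineage, among them Tcf4 and Ly6d. Rag1-deficient mice form dendritic cells and natural killer (NK) cells, while they form no T cells.

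The proximal promoters are shown first because E proteins such as Tcf4 bind E-boxes, the short motif CANNTG, and because most of the 9 genes had similar array ratios. RefSeq promoter windows of assembly GRCm38.p6 were given for 7 of the 9 genes, not for Tcf4 and Ly6d, and the 250 bases before each start were read. Siglech lies at chr7:55767934-55768183 on the plus strand, Ccr9 at chr9:123766961-123767210 on the plus strand, Klk1 at chr7:44225110-44225359 on the plus strand and Bst2 at chr8:71537473-71537722 on the minus strand. These 4 were picked after their values had been seen, because each of their windows holds the E-box form CAGGTG. Pacsin1, whose ratios lie nearer to those of Siglech, Ccr9 and Klk1 than the ratios of Bst2 do, was not printed and holds no E-box. Atp1b1, at chr1:164458356-164458605 on the minus strand, is set beside them as the gene with the opposite ratio. The choice fixed which printed windows hold the motif, and a link between motif and ratio was not tested. Each is written 5′ to 3′ on the gene's own strand, and capitals mark every CANNTG, which reads as such on both strands.
Siglech: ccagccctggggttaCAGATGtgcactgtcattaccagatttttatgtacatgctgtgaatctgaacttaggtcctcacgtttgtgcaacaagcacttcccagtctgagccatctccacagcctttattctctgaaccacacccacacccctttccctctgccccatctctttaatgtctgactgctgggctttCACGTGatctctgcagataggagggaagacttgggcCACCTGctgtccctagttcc
Ccr9: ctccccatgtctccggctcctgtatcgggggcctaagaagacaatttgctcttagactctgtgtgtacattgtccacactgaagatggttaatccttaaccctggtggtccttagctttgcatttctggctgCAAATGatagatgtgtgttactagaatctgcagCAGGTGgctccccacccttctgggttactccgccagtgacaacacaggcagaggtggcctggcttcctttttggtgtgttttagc
Klk1: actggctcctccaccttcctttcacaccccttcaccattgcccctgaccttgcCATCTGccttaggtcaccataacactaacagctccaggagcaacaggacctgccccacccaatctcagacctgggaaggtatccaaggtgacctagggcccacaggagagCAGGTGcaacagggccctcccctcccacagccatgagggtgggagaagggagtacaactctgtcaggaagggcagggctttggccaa
Bst2: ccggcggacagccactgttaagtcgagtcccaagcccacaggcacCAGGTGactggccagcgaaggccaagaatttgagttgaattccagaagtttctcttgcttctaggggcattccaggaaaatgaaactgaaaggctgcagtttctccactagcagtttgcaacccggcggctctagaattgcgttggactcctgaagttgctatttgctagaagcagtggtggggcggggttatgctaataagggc
Atp1b1: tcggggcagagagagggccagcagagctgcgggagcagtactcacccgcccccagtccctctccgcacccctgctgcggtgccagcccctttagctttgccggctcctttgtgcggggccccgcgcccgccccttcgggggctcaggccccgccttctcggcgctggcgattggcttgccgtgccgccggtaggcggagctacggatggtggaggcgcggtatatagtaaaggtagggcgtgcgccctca

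Counted from the start site, the Siglech window held 3 E-boxes, of which the one at -20 was CAGGTG read on the opposite strand (CACCTG as printed). Ccr9 and Klk1 held 2 each, with CAGGTG at -85 and -87. Bst2 held 1, CAGGTG at -205. The window of Atp1b1 held no E-box. Runx2 held 1 E-box, at -78, which was not CAGGTG, and Pacsin1 held none. The Runx motif TGTGGT, searched on both strands, stood in the windows of Siglech at -115, Runx2 at -80 and Pacsin1 at -178. An interferon-stimulated response element (ISRE), an Ets motif and a further E-box form were searched as well. The ISRE stood in the Bst2 window at -130 and -124 and in no other window of these genes. The Ets motif and the further E-box form stood in none of them. Among all 32851 windows of this length, CANNTG was present in 66.2%, CAGGTG or its complement in 17.2% and TGTGGT or its complement in 14.1%. The ISRE was present in 2.98%, the Ets motif in 23.25% and the further E-box form in 13%. A match describes letters in these windows and was not measured as a binding site.

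Across the 9 genes, Siglech, Ccr9, Klk1, Bst2, Pacsin1 and Runx2 had lower signal in the autoreactive channel on both arrays, and on array 2 each was at least 4-fold lower (0.437% of all genes were), whereas on array 1 each was less than 2-fold lower. The ratios of the 2 arrays differed in size, and none of these 6 passed limma's test. With each array centred on the median of the probes tested and no loess, all 6 passed. Their limma adjusted p-values ran from 0.00856 for Siglech to 0.0370 for Runx2. Ly6d passed as well, but that setting called 16.6% of all genes lower. Centred instead on the median of all probes, Siglech, Ccr9, Klk1 and Pacsin1 passed, at limma adjusted p-values of 0.0102 to 0.0215. That setting called 2.52% of all genes lower and 65.9% higher. With loess, as used below, Ly6d was 2.49-fold lower and Atp1b1 3.75-fold higher in autoreactive cells, with like values on both arrays. These were the members that passed with loess, 1 of 9 in each direction. Of all 15105 genes tested, 2.62% were called lower and 3.54% higher. Tcf4 had a small ratio. In bulk RNA, fewer cells of a type and less RNA per cell cannot be told apart. A ratio below is the log2 of autoreactive over non-autoreactive signal of a gene's brightest probe after normexp background correction and loess. A call means a Benjamini-Hochberg adjusted limma p under 0.05 over all probes tested. Each SE is limma's moderated one, which borrows from the variance of all probes tested, so it is not the plain SE of 2 array values.

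**Figure D1:**
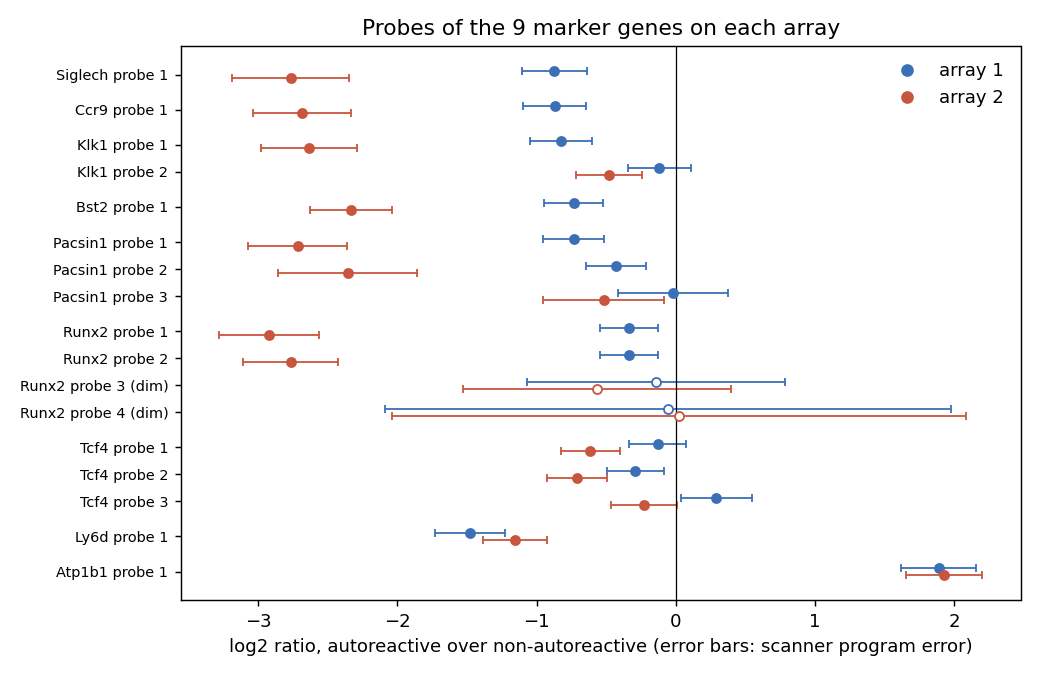
Log2 ratio of autoreactive over non-autoreactive signal for every probe of the 9 genes on array 1 and array 2 (filled points tested, open points too dim to test). Error bars are the error that the scanner program gave for its own log ratio. By their brightest probe, Siglech, Ccr9, Klk1, Bst2, Pacsin1 and Runx2 lie between -0.34 and -0.87 on array 1 and between -2.33 and -2.92 on array 2, while the points of Atp1b1 and Ly6d lie close together.

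Of the surface proteins, Siglech encodes a sialic acid-binding lectin on which mouse pDC are commonly identified. Its probe, at chr7:52015392-52015451 on the plus strand (probe positions are the scanner files' own, without a named build), had a log2 ratio of -0.87 on array 1 and -2.77 on array 2. The autoreactive cells thus had 1.83-fold less signal on array 1 and 6.80-fold less on array 2, and the mean log2 ratio was -1.82 ± 0.40 (SE, n = 2; limma adjusted p = 0.0610). The autoreactive sample is the lower on both arrays, and the difference between the arrays, -1.89 on the log2 scale, is larger than the first ratio.

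Ccr9 encodes the receptor for the chemokine Ccl25, which guides cells to the thymus and small intestine. Its log2 ratios of -0.87 and -2.69 were close to those of Siglech on each array (mean -1.78 ± 0.39, SE, n = 2; limma adjusted p = 0.0586). The signal was 1.83-fold lower in autoreactive cells on array 1 and 6.44-fold lower on array 2. Over all 15105 genes tested, the gene whose pair of ratios lay nearest to that of Siglech was Ccr9, at a distance of 0.0785, followed by the kallikrein gene Klk1b3 at 0.121 and by Klk1 at 0.138. The distance is Euclidean over 2 arrays, and 9 genes lay within 0.25.

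Bst2 encodes tetherin, an interferon-inducible membrane protein that holds budding viruses at the cell surface and carries the PDCA-1 epitope. It had a log2 ratio of -0.73 on array 1 and -2.33 on array 2, a 1.66-fold and a 5.04-fold lower signal in autoreactive cells (mean -1.53 ± 0.35, SE, n = 2; limma adjusted p = 0.0640). Bst2 was the brightest of the 6 genes, so that its difference between the arrays, -1.60, was measured far above background in both channels. Its nearest genes in the pair of ratios were Ppfia4, Fyb and Ahnak, at distances of 0.0547 to 0.114.

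Ly6d encodes a small glycolipid-anchored protein that marks lymphoid progenitors committed to the B lineage and is present on pDC as well. Arrays 1 and 2 gave log2 ratios of -1.48 and -1.16 (mean -1.32 ± 0.14, SE, n = 2; limma adjusted p = 0.00801). Ly6d fell in autoreactive cells by these ratios, and the array with the larger reduction was array 1, the reverse of the 6 genes above. The call was lost with a trended and robust prior (adjusted p = 0.154), which called 0 members and 0.0728% of all genes lower. It was also lost with centring on the median of all probes and no loess, where the mean was -0.15 (adjusted p = 0.428), while 4 members and 2.52% of all genes were called lower.

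Atp1b1 encodes a regulatory beta subunit of the sodium pump. Arrays 1 and 2 gave log2 ratios of 1.89 and 1.93, and it rose 3.75-fold in autoreactive cells (mean 1.91 ± 0.12, SE, n = 2; limma adjusted p = 0.00214). Both arrays gave nearly the same ratio, with a difference of 0.040. Its nearest genes in the pair of ratios were Sdc1, which encodes the plasma cell surface protein syndecan-1, Mturn and Tifa.

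Klk1 encodes tissue kallikrein, a serine protease that releases kinins. The brighter of its 2 probes, at chr7:40402636-40402791, had log2 ratios of -0.82 and -2.64, so that autoreactive cells had 1.77-fold less signal on array 1 and 6.22-fold less on array 2 (mean -1.73 ± 0.39, SE, n = 2; limma adjusted p = 0.0627). The dimmer probe, whose position spans chr7:40399353-40401408, had -0.12 and -0.48 (adjusted p = 0.265). The 2 probes shared their direction and differed in size on both arrays. Klk1 and the Klk1b kallikrein genes are close copies in 1 cluster, and cross-hybridisation between them was not tested.

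Pacsin1 encodes a membrane-bending adaptor of endocytosis, abundant in neurons and in pDC. Its brightest probe had log2 ratios of -0.73 and -2.72, a 1.66-fold and a 6.58-fold lower signal in autoreactive cells (mean -1.73 ± 0.42, SE, n = 2; limma adjusted p = 0.0769). A second probe had -0.43 and -2.36 (adjusted p = 0.119), and the dimmest, near background, had -0.022 and -0.52 (adjusted p = 0.350). The Cy5 signal of these last 2 probes was not well above background on array 2, so their ratios there are less certain than that of the first. The 3 probes were all lower on array 2 than on array 1.

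Among the transcription factors, Runx2, a runt-domain factor best known from bone formation and also needed by pDC to leave the marrow, had the widest gap between the arrays. Its main probe, at chr17:42727803-42727862 on the minus strand, is printed on 10 spots, of which 9 were kept on each array. The 9 spots ranged from -0.40 to -0.29 on array 1 and from -2.97 to -2.84 on array 2, with an SD between spots of 0.036 and 0.042. The spots of one array therefore lay far closer together than the arrays did, whose difference was -2.58.

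The mean log2 ratio of Runx2 was -1.63 ± 0.54 (SE, n = 2; limma adjusted p = 0.148), from -0.34 on array 1 and -2.92 on array 2, a 1.26-fold and a 7.57-fold lower signal in autoreactive cells. A neighbouring probe had -0.34 and -2.77 (adjusted p = 0.145). The 2 remaining Runx2 probes were not well above background in either channel of either array and were not tested. The gene nearest to Runx2 in the pair of ratios was Il2rb, the interleukin 2 receptor beta chain of NK and T cells, at 0.224, followed by Ccl4 at 0.267 and Cxcr3 at 0.271.

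Tcf4 encodes the E protein E2-2. Its brightest probe had log2 ratios of -0.13 and -0.62 (mean -0.37 ± 0.16, SE, n = 2; limma adjusted p = 0.223), a 1.09-fold and a 1.53-fold lower signal in autoreactive cells. The other probes had -0.29 and -0.71 (adjusted p = 0.121) and 0.29 and -0.23 (adjusted p = 0.927). All 3 probes were lower on array 2 than on array 1, and none passed the test. The sign of the mean also depended on the centring: with each array centred on the median of all probes and no loess, the brightest probe stood at 0.49 with an adjusted p of 0.0193, in a setting that called 2 of the 9 members and 65.9% of all genes higher.

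Read over all 9 genes, 8 were lower on both arrays, where 35.3% of all genes tested were. At least 2-fold lower signal was found for 1 of 9 on array 1 (0.94% of all genes) and for 7 of 9 on array 2 (2.77%). At least 4-fold lower signal on array 2 was found for 6 of 9 (0.437%). At an unadjusted limma p under 0.05, 7 of 9 were lower (12.3% of all genes) and 1 was higher (12.0%). With the adjusted threshold at 0.1, 6 of 9 were lower (5.24%) and 1 was higher (5.87%). The median log2 ratio of the 9 genes was -0.73 on array 1 and -2.64 on array 2, against 0.0088 and -0.010 for all genes tested.

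**Figure D2:**
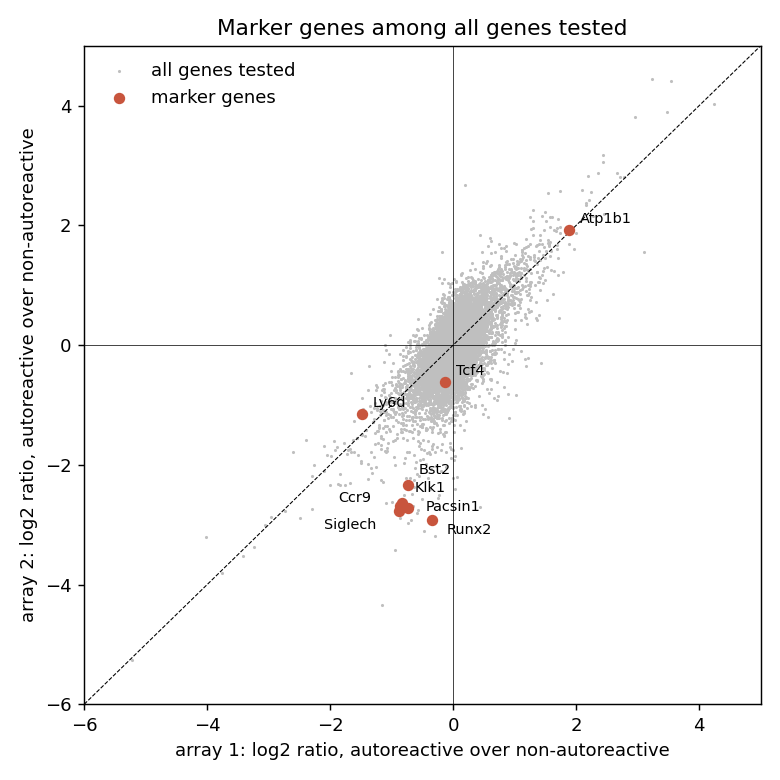
Log2 ratio on array 2 against that on array 1 for all 15105 genes tested (grey) and the 9 marker genes (orange), with the line of equal ratios dashed. Atp1b1 lies on the line, Ly6d lies close to it, and Siglech, Ccr9, Klk1, Bst2, Pacsin1 and Runx2 lie well below it.

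The difference between the arrays was set beside that of all genes, as a description, since each array gives 1 value. Subtracting array 1 from array 2, the 5th and 95th percentiles over genes were -0.63 and 0.47, with a median of -0.014. Runx2 stood at -2.58, and 5 genes, Runx2 included, had a difference as low or lower, 0.033% of those tested. Pacsin1 at -1.98 ranked 21st, Siglech at -1.89 ranked 25th, Ccr9 at -1.82 ranked 30th, Klk1 at -1.81 ranked 31st and Bst2 at -1.60 ranked 50th. A difference of at least 1.5 below 0 was found for 0.424% of all genes and for these 6 of the 9. Tcf4 at -0.49 lay between those percentiles, as did Ly6d at 0.32 and Atp1b1 at 0.040.

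The 2 channels were then read apart, after loess and Aquantile between the arrays, as log2 signal. The Siglech signal in the autoreactive channel was 8.37 on array 1 and 6.91 on array 2, while in the non-autoreactive channel it was 9.24 and 9.68. The autoreactive signal of array 2 was thus 2.75-fold lower than that of array 1, and the non-autoreactive signal was 1.35-fold higher. Both channels moved apart on array 2, and the same held for all 6 genes. In the autoreactive channel the signal of array 1 over that of array 2 was 2.36-fold for Ccr9, 2.46-fold for Klk1, 1.70-fold for Bst2, 2.72-fold for Pacsin1 and 3.35-fold for Runx2. In the non-autoreactive channel, the array 2 signal over that of array 1 was 1.49-fold for Ccr9, 1.43-fold for Klk1, 1.78-fold for Bst2, 1.45-fold for Pacsin1 and 1.79-fold for Runx2. For Bst2 alone of the 6 the non-autoreactive channel accounted for the larger share of the difference.

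**Figure D3:**
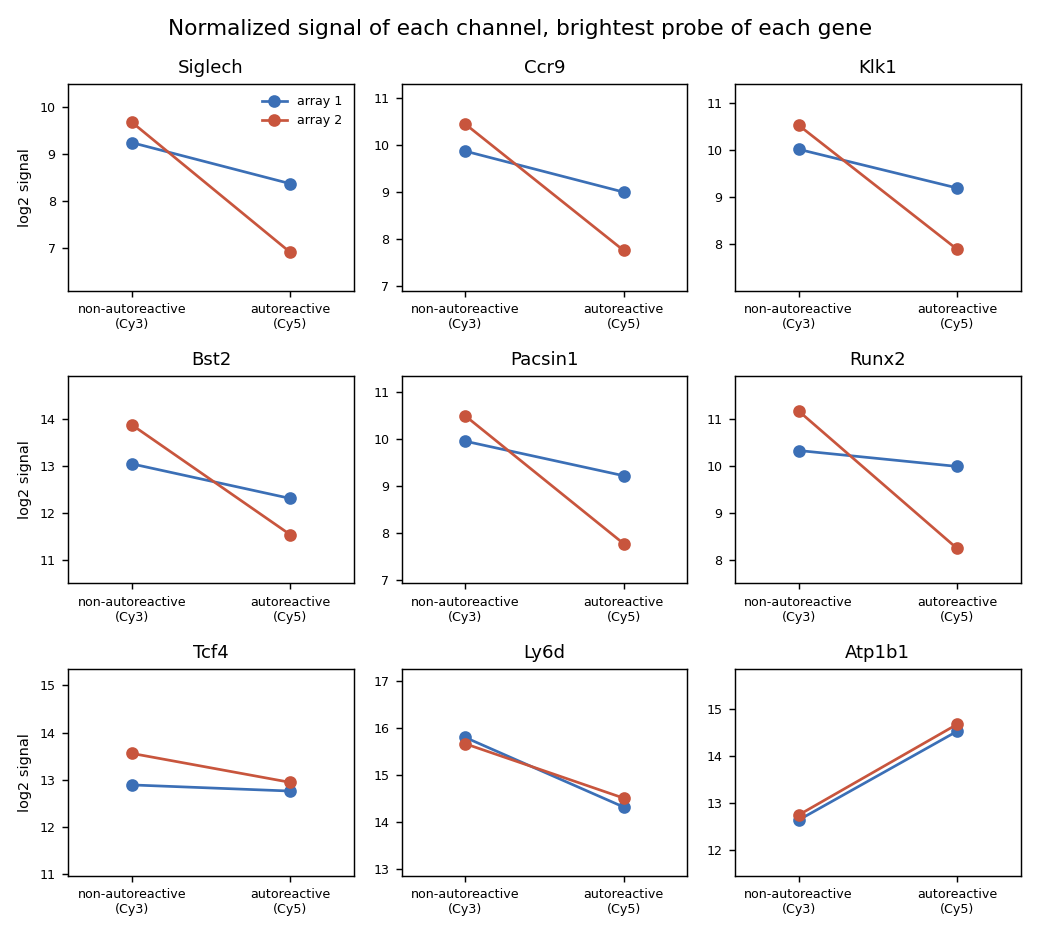
Log2 signal of the brightest probe of each gene (1 panel a gene, with the axis range shifted to its level) in the autoreactive (Cy5) and non-autoreactive (Cy3) channel of each array, after loess and Aquantile. In the 6 genes with unequal array ratios the autoreactive signal is lower and the non-autoreactive signal higher on array 2, and Atp1b1 keeps its levels, at 14.52 and 14.67 against 12.63 and 12.74.

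Both channels of Atp1b1 and Ly6d moved less than those of the 6 genes. Atp1b1 stood at 14.52 and 14.67 in autoreactive cells and at 12.63 and 12.74 in non-autoreactive ones. Ly6d stood at 14.33 and 14.51 against 15.80 and 15.67. Tcf4 stood at 12.76 and 12.94 against 12.89 and 13.56, and these overlap, with a non-autoreactive signal 1.59-fold higher on array 2. Siglech had the dimmest main probe, with raw mean intensities of 485 and 148 in Cy5 and 362 and 609 in Cy3 on arrays 1 and 2, and every main probe was well above background in both channels of both arrays.

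The error that the scanner program gave for its own log ratio, on the log2 scale, was 0.232 and 0.420 for Siglech and 0.208 and 0.360 for Runx2. Combined over both arrays it came to 0.480 and 0.416. The array differences of -1.89 and -2.58 above are those of the normexp and loess ratios, a measure unlike the one this error belongs to. The deposited log ratios, turned to log2, are the program's own, and they also placed the 6 genes lower on array 2. In them Siglech stood at -1.12 and -3.85, Runx2 at -0.40 and -3.18, Ccr9 at -1.02 and -3.09, and Bst2 at -0.69 and -2.33. In these deposited ratios Atp1b1 stood at 1.94 and 1.99 and Ly6d at -1.56 and -1.23.

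Other genes of the pDC programme were read from lists of related genes. Among the pDC transcription factors and their antagonists, 17 genes were tested, with the members Tcf4 and Runx2 counted among them. Of the 17, 0 were called higher and 2 lower, where 3.54% and 2.62% of all genes were. The median log2 ratio of the 17 was -0.36 against -0.0017 for all genes. At an unadjusted limma p under 0.05, 1 was higher and 6, Runx2 among them, were lower (12.0% and 12.3% of all genes). Bcl11a, a zinc finger factor needed by both pDC and B cells, fell by 1.29 on the log2 scale (limma adjusted p = 0.00669; -2.35 by another of its probes), and Spib, an Ets factor of both lineages, fell by 0.64 (adjusted p = 0.0421). Cbfa2t3 stood at -0.43 and -1.19 (adjusted p = 0.0757) and Irf8 at -0.14 and -0.58 (adjusted p = 0.223). Zeb2, a repressor that holds pDC identity, had a mean of 0.43 (adjusted p = 0.116). Runx2 was the 1 gene of this list with a difference between arrays of at least 1 below 0.

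In the list of pDC surface and other associated genes, 19 of 21 were tested, and 5 were called lower and 1 higher, with a median log2 ratio of -0.36 on array 1 and -1.30 on array 2. The genes called lower were Lifr, the leukaemia inhibitory factor receptor, at -1.72, the adhesion protein gene Cadm1 at -1.38, the lectin gene Cd209d at -1.23, Cox6a2, a cytochrome oxidase subunit, at -1.22, and the receptor phosphatase gene Ptprs at -1.09. The Cy5 signal of this Lifr probe was not well above background on array 2, so its size there is uncertain, and the other Lifr probes stood at -0.87 and -0.82. The other probe of Cadm1 stood at -1.35 without passing (adjusted p = 0.0675). Ptprcap, a CD45-associated protein of lymphocytes, rose by 0.71. A difference between arrays of at least 1 below 0 was found for 8 of the 19, where 1.35% of all genes had one. Cd7, which T and NK cells also express, had -0.69 and -2.92 (limma adjusted p = 0.0893), and Smim5 had -0.62 and -2.06 (adjusted p = 0.0707).

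The nucleic acid sensing and interferon output list held 20 tested genes of 23, with 1 called higher and 2 lower and a median log2 ratio of -0.14. Pld4, an endolysosomal nuclease of pDC and B cells, fell by 2.10 with ratios of -2.11 and -2.10 on the 2 arrays (limma adjusted p = 0.00145). Irf5, a factor downstream of Toll-like receptors, fell by 0.83 and the signalling ligase gene Traf6 rose by 0.79. Tlr7, the endosomal sensor of single-stranded RNA, had -0.64 and -1.83 (adjusted p = 0.0592), and Tlr9, the sensor of unmethylated DNA, had 0.036 and -0.087. Probes of Ifna2, Ifna4 and Ifnb1 were not bright enough to test.

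Of the interferon-stimulated genes beside Bst2, 14 were tested, 0 were called higher and 2 lower, with a median log2 ratio of -0.35. At an unadjusted limma p under 0.05, 0 were higher and 8 lower, where 12.0% and 12.3% of all genes were. Oas2 fell by 1.29 and Mx1 fell by 1.14, both antiviral effectors, with differences between the arrays of -0.18 and -0.15. None of the 14 had a difference between arrays of at least 1 below 0, and Ifi44 came nearest with -0.44 and -1.38 (adjusted p = 0.0810).

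The relatives of each member were read in the same way. The kallikrein list held 10 tested genes of 16, and limma called 0 of them in either direction. At an unadjusted limma p under 0.05, 7 were lower (12.3% of all genes), and the separate-channel fit and the trended and robust prior called 0. The list had a median log2 ratio of -0.67 on array 1 and -2.23 on array 2. All 7 tested Klk1b genes had ratios of -0.42 to -1.15 on array 1 and of -1.61 to -4.34 on array 2, with adjusted p-values of 0.0643 to 0.0957. The ratio of -1.61 is that of Klk1b24, whose Cy5 signal was not well above background on array 2. Klk1b5 was the lowest, at -1.15 and -4.34. Klk4 and Klk10, which are not among the Klk1b copies, had means of -0.055 and -0.39, and Klk8 was not well above background in Cy5 on either array.

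The remaining families had few calls. In the Siglec family 1 of 5 tested genes was called, Siglecg, a B cell inhibitory lectin, which fell by 0.80. Of 10 chemokine receptor and ligand genes, 2 were called lower, Ccr6 at -2.09 and Cxcr5 at -1.72, both homing receptors of mature B cells, while Cxcr3 had -0.59 and -2.81 without passing. In the Runx family 1 of 3 was called, Runx3 at -0.79 (its other probe had -0.060), and Runx1 had 0.21. In the Ly6 family 1 of 7 was called, Ly6k at -0.93. Of 4 sodium pump subunits limma called 0, as did the separate-channel fit and the trended and robust prior. At an unadjusted limma p under 0.05, 1 was higher and 1 lower (12.0% and 12.3% of all genes), and Atp1b2 had 0.70 (adjusted p = 0.0523). Of 4 Pacsin relatives and partners limma called 0, with 0 at an unadjusted p under 0.05 and 0 by those other fits. Under the trended and robust prior none of the genes of these lists, from the pDC transcription factors on, was called.

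The chromosomal neighbours of the members were read from the probe positions in the scanner files. The 10 tested genes flanking each member had median log2 ratios between -0.34 and 0.33. For Klk1, 4 of the 10 were at least 1 lower on array 2 than on array 1, and these were its copies Klk1b3, Klk1b4, Klk1b5 and Klk1b24. For Ccr9 and for Atp1b1 there was 1 such neighbour each, and for the other members none. Pacsin1 and Runx2 lie on chromosome 17, as the H-2 complex does, at 6.525 and 10.31 Mb from H2-Ea.

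Markers of other cell types were read beside the members. B220 is carried by B cells, pDC and some NK cells, while erythroid cells, megakaryocytes, granulocytes, monocytes and most T cells lack it, so the sort was set to leave those out. CD43, which the sort selected against, is carried by most T, NK and myeloid cells. Of 12 B lineage genes, 4 were called higher and 2 lower, with a median log2 ratio of 0.52. Ighm, the mu heavy chain gene, rose by 1.00 and the Fc receptor-like gene Fcrla rose by 0.96, while Ms4a1, which encodes CD20, fell by 3.61, Cd79a stood at -0.24 and Pax5 fell by 1.05 (its other probe had -0.40, adjusted p = 0.176). None of the 12 had a difference between arrays of at least 1 below 0. Of 10 NK cell genes limma called 0, as did the separate-channel fit and the trended and robust prior. At an unadjusted limma p under 0.05, 5 were lower (12.3% of all genes). A difference between arrays of at least 1 below 0 was found for 8 of the 10 (1.35% of all genes). Ncr1, which defines NK cells, had -0.0072 and -2.23, and Gzma had 0.43 and -2.71. The Cy5 signals of Klrk1 and Eomes were not well above background on array 2. The summed NK signal was 12535 and 5855 in the autoreactive channel and 13479 and 17026 in the non-autoreactive channel on arrays 1 and 2.

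**Figure D4:**
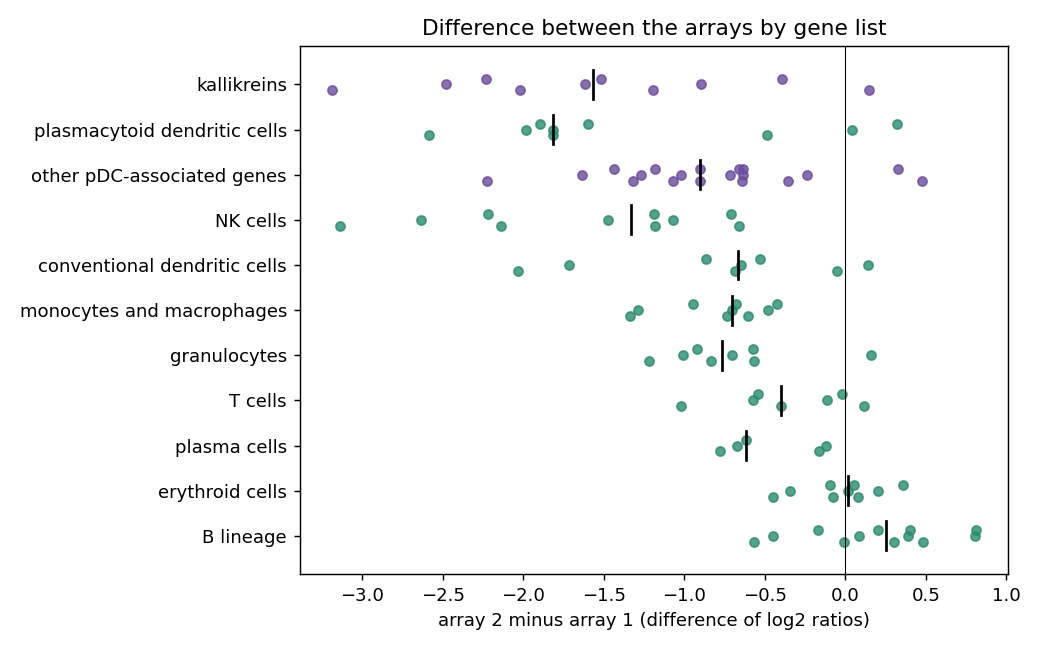
Difference of the log2 ratio between the arrays (array 2 minus array 1) for each tested gene of the pDC markers, 2 related lists and marker lists of other cell types, with a black line at each median. The pDC markers, the kallikreins and the NK cell genes have the lowest medians, -1.81, -1.57 and -1.33, and the B lineage genes have a median of 0.25.

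Most myeloid and dendritic markers also stood lower on array 2, but not Zbtb46 and S100a8. Conventional dendritic cell genes had a median difference between arrays of -0.67, with 2 of 8 at least 1 lower (1.35% of all genes). Itgax, which encodes CD11c, had -0.36 and -2.08, while Zbtb46 had 0.098 and 0.24 (mean 0.17). Clec9a, Cd209a and Fscn1 were not bright enough to test. Monocyte and macrophage genes had a median difference of -0.70 with 2 of 9 at least 1 lower and Csf1r at 0.13 and -0.48. Granulocyte genes had one of -0.77 with 2 of 8, and S100a8 at 0.073 and 0.23. T cell genes had a median difference of -0.40, with 1 of 7 at least 1 lower, and 6 of 7 were lower on both arrays (35.3% of all genes). Of these 7 genes 0 were called higher and 2 lower, Cd5 at -1.49 and Cd8b1 at -0.93, and Cd3e had a mean of 0.16. The other Cd8b1 probe had -1.34 on array 1 and -3.17 on array 2 (mean -2.26, limma adjusted p = 0.0300). Erythroid genes had a median difference of 0.015, and all 9 were lower on both arrays, with Klf1 at -0.44. Plasma cell genes had a median difference of -0.61 with 0 of 5 at least 1 lower, and 2 were called higher and 2 lower. Sdc1 rose by 1.94 and Irf4 rose by 0.89, while Jchain fell by 1.65 and Xbp1 fell by 0.80. Basophil and mast cell genes had a median difference of -0.62 with 0 of 6, and megakaryocyte genes one of -0.37 with 0 of 5. On arrays 1 and 2 the summed signal of the conventional dendritic cell genes was 11304 and 9963 in the autoreactive channel and 8485 and 12764 in the other. For the monocyte and macrophage genes it was 127557 and 114339 against 96862 and 144145, and for the granulocyte genes 424512 and 367129 against 369646 and 503860. The part that these cell types have in the results for the 9 genes was not tested.

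Over the whole series, no spot was saturated, and the share of gene spots well above background ranged from 54.1% to 57.4% over the channels. Of all genes tested, 534 were called higher and 396 lower.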

How the data were processed

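The authors deposited 2 scanner files with mean spot intensity and median background intensity for both channels. Per the file headers, the program was Agilent Feature Extraction 9.5.1.1. They also hold a log10 ratio of Cy5 over Cy3 per spot, which the deposited series table repeats (largest difference 5e-10, median 0 on each array). The genome build of the probe positions is not given in the sources used here.

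Intensities were corrected in limma 3.58.1 (R 4.3.3) with normexp (offset 50) and then loess per array, without control spots, and 274 and 306 outlier spots were removed. Spots of a probe were averaged. Testing a probe required a channel well above background on both arrays, which left 22613 of 41174. Log2 ratios were tested against 0 with lmFit and eBayes (1 residual and 5.10 prior degrees of freedom), two-sided, and p-values were adjusted by Benjamini-Hochberg over these probes (threshold 0.05). A gene was taken at its brightest tested probe. The steps were tested on simulated data. The number of arrays limits the precision.

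Names were updated through a RefSeq gene table of GRCm38.p6, by accession for 22951 probes, symbol for 6659 and synonym for 3109, while 8455 kept the file's name. All member probes are given, with up to 3 genes of each list by absolute mean ratio, and defining markers of other cell types. Tlr9, Irf8, Ifi44, Smim5, Klk4, Klk8, Klk10, Fcrla and others were named for their role or after their values were seen. The members and lists were chosen with earlier results of these data known. Alternatives were another background correction or offset, the deposited ratios, other centrings, filters, probe rules, separate channels, another prior and leaving out an array. Figures were drawn with matplotlib 3.10.9 in Python 3.11.15.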

Additional observations from a re-analysis of the deposited data

How the results depend on the processing

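Each ratio pairs both samples of an array, so the main test is paired by array. No pairing beyond that was possible, because the labels number the autoreactive pools only. The dye was not swapped, so a dye effect on a probe cannot be told apart from the groups. Siglech, Ccr9, Klk1, Bst2, Pacsin1, Runx2 and Ly6d were below 0 in all 10 settings that keep both arrays, and Atp1b1 was above 0 in all 10 and was called in all 10. With the other filters, separate channels or the other prior, each member kept the ratio of the main fit. In those settings only the calls could change, not the signs. Centring on all probes without loess put the median gene at 0.58 and gave 9947 genes called higher, with 2 members higher and 4 lower. The 4 lower were Siglech, Ccr9, Klk1 and Pacsin1, where 2.52% of all genes were called lower. There Tcf4 was reversed, at 0.49, and Ly6d stood at -0.15 (limma adjusted p = 0.428). Centring on the probes tested gave 2794 genes higher (18.5%) and 2504 lower (16.6%), with 7 members lower, all but Tcf4 and Atp1b1, at adjusted p-values down to 0.00856 for Siglech. The deposited ratios gave 302 genes higher. Without the filter on dim probes, 244 genes were lower. Separate channels gave 106 genes higher and 71 lower. A trended and robust prior gave 11 genes lower and 0 members lower, with Ly6d at an adjusted p of 0.154. The cause of these changes was not tested. Leaving out 1 array moved the median log2 ratio of the members from -1.63 to -2.64 without array 1 and to -0.73 without array 2. With 1 array left there are no residual degrees of freedom, so no calls could be given. At an adjusted threshold of 0.1, 9 of the 19 pDC surface genes and 7 of the 10 kallikreins were lower, where 5.24% of all genes were.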

Other observations

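Over all genes tested, the lowest differences between the arrays (array 2 minus array 1, log2 ratio of autoreactive over non-autoreactive) also held genes of cytotoxic lymphocytes. Gzma, which encodes granzyme A, had -3.14, the chemokine gene Ccl4 had -2.88, Il2rb had -2.63 and Xcl1, which encodes lymphotactin, had -2.45. Klk1b5 had the lowest value, -3.19, and Klk1b27 had -2.48. Rnd3 had -2.32, the scavenger receptor gene Cd163l1 had -2.28 and Ptprz1 had -2.27. These genes were named after their values were seen, and none of them passed limma's test of the mean ratio, with adjusted p-values of 0.0719 for Klk1b27 to 0.342 for Gzma.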
